A study of Mus musculus with 20 samples.

Results

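The genes described here make cholesterol or answer to the sterol level of the cell. They comprise the enzymes that carry acetyl units to cholesterol, the machinery around the transcription factor SREBP2, and genes of sterol transport and esterification, in liver RNA of male C57BL/6J mice after long gamma irradiation. Of 32 genes listed by name, 30 had a probe set with 1 gene symbol on the array, and Acat2 and Soat2 did not. Each gene was read from its probe set with the highest mean signal over 20 arrays. All 30 lay above the median signal of all probe sets and were fitted together with the rest of the array, 11206 genes in all. They fall into 18 enzymes, 4 genes that control SREBP2, and 8 genes of transport, uptake or esterification.

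All mice were 8 weeks old at the start and those irradiated received whole-body 137Cs gamma rays for 22 h a day, per the labels. In experiment 1 the exposure ran for 485 days at 0.042, 0.858 or 16.6 mGy per day, which came to 20.6, 416 and 8030 mGy. In experiment 2 it ran for 401 days at 0.05, 1 or 20 mGy per day, which came to 20, 401 and 8015 mGy. Low, medium and high refer to these steps of each experiment. Each of the 6 irradiated groups had 3 mice on 1 array each. Unirradiated mice were measured as pooled RNA, 1 array of 3 mice in experiment 1 and 1 array of 6 mice in experiment 2. Livers were taken once irradiation ended, and the sources used here do not state at what hour.

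Cholesterol is built in the hepatocyte from acetyl-CoA. The mevalonate branch makes isoprene units and joins them to farnesyl diphosphate, and the sterol branch joins farnesyl units to squalene, closes the rings and trims lanosterol to cholesterol. When sterols in the endoplasmic reticulum run low, the escort protein Scap carries SREBP2 to the Golgi, where it is cut and released to the nucleus to switch on nearly the whole pathway. Insig1 and Insig2 hold Scap back when sterols are plentiful, and oxysterols act through the receptor LXR to raise the export pumps Abca1, Abcg5 and Abcg8.

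Promoters of 5 of the genes described below are shown first, from the RefSeq table of build GRCm38.p6. Each runs from 250 bases before to 50 after the transcription start, 5′ to 3′ on the gene's strand. Capitals mark ATTGG, the core bound by NF-Y, in either orientation (so also as CCAAT), and TCACNCCAC, a sterol regulatory element bound by SREBP2. The first is that of Hmgcs1, which condenses acetyl units to HMG-CoA at the entry of the mevalonate branch (chr13:119690101-119690400, plus strand), and the others are those of the isomerase Idi1 (chr13:8885356-8885655, plus strand), of Cyp51, which demethylates lanosterol (chr5:4104648-4104947, minus strand), of Hsd17b7, a sterol ketone reductase (chr1:169969156-169969455, minus strand), and of the sterol pump subunit Abcg8 (chr17:84682871-84683170, plus strand, the one of its listed windows that faces Abcg5).
Hmgcs1: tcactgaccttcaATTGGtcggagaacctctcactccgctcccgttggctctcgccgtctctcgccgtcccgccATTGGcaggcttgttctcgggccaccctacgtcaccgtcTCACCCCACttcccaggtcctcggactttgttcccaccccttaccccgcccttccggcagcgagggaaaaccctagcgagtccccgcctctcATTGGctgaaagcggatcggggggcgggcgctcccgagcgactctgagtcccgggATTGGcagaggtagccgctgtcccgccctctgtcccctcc
Idi1: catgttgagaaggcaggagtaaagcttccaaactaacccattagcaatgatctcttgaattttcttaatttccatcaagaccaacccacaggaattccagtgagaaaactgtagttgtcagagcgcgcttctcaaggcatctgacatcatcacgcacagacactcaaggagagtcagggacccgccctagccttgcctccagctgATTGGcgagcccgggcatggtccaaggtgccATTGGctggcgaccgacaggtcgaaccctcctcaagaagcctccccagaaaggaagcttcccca
Cyp51: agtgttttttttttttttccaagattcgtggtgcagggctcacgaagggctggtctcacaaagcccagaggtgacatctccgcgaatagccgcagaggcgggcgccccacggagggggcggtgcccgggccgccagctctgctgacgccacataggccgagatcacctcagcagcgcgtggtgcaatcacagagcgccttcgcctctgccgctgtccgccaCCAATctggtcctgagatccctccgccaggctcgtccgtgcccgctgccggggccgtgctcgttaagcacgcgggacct
Hsd17b7: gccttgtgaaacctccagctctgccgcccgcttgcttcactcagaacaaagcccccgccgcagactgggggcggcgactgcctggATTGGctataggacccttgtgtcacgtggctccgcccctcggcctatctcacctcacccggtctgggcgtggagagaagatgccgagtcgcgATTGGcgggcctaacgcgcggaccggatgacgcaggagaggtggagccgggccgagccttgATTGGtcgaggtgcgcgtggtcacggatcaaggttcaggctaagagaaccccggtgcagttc
Abcg8: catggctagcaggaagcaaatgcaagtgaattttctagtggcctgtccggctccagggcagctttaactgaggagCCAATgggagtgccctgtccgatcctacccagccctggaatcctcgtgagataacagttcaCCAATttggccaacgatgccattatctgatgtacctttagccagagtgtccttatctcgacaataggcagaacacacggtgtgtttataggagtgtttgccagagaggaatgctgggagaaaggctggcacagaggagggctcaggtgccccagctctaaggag

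Of the 32 listed genes, 25 had a promoter in the table, and both strands were searched. Squalene epoxidase (Sqle) and squalene synthase (Fdft1), which lead the comparisons below, had none and are not in these counts. ATTGG was present in 22 of them (88.0%), against 41.1% of all 27025 genes with a promoter. In Hmgcs1 it began 237, 176 and 45 bases before the start and again 10 bases after it, in Idi1 45 and 14 bases before, in Cyp51 29 bases before, and in Hsd17b7 165, 73 and 12 bases before. TCACNCCAC was found in Hmgcs1 alone of the 25 (4.0%), 137 bases before its start, against 1.44% of all genes. Other forms of the sterol regulatory element were not searched, so a window without this one may still hold an SREBP2 site. The Sp1 core GGGCGG was in 20 of 25 (80.0%, against 38.2% of genes) and the E-box CACGTG in 6 of 25 (24.0%, against 8.09%). None of the 4 motifs contains another, and a match is a description of the letters only. Abcg5 and Abcg8 are divergent neighbours, and their windows share 209 bases (chr17:84682962-84683170).

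At the high dose-rate the enzymes of cholesterol synthesis stood above those of the low dose-rate in most mice of both experiments. Signals are MAS5 intensities scaled to a common mean, and differences are those of log2(signal + 7.12) from a linear model (limma) with dose level and experiment as terms, given with their standard error. The median difference over the 18 enzymes was 0.47 on that scale for high against low, with 16 of 18 higher, while the median over all genes tested was 0.00. Squalene epoxidase (Sqle) stood 3.01-fold higher and squalene synthase (Fdft1) 1.71-fold higher. The sterol export pump subunits Abcg5 and Abcg8 lay on the other side, 0.77-fold and 0.73-fold of the low level. No single gene reached the threshold once all 11206 genes were adjusted for: limma called 0 of the 30 members, and 0% of all genes, at an adjusted p under 0.05.

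Without the adjustment, members passed more often than genes at large. At an unadjusted p under 0.05, high against low held 16 of the 30 members (53.3%), against 10.1% of all genes. Of these, 14 were higher, all of them enzymes, against 5.38% of all genes that were higher by this rule. The other two, Abcg5 and Abcg8, were lower, against 4.68% of all genes. By sample, in both experiments every high mouse lay above every low mouse for Fdft1 and Sqle (0.625% of all genes did so), and below for Abcg8 (0.607% of all genes).

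**Figure D1:**
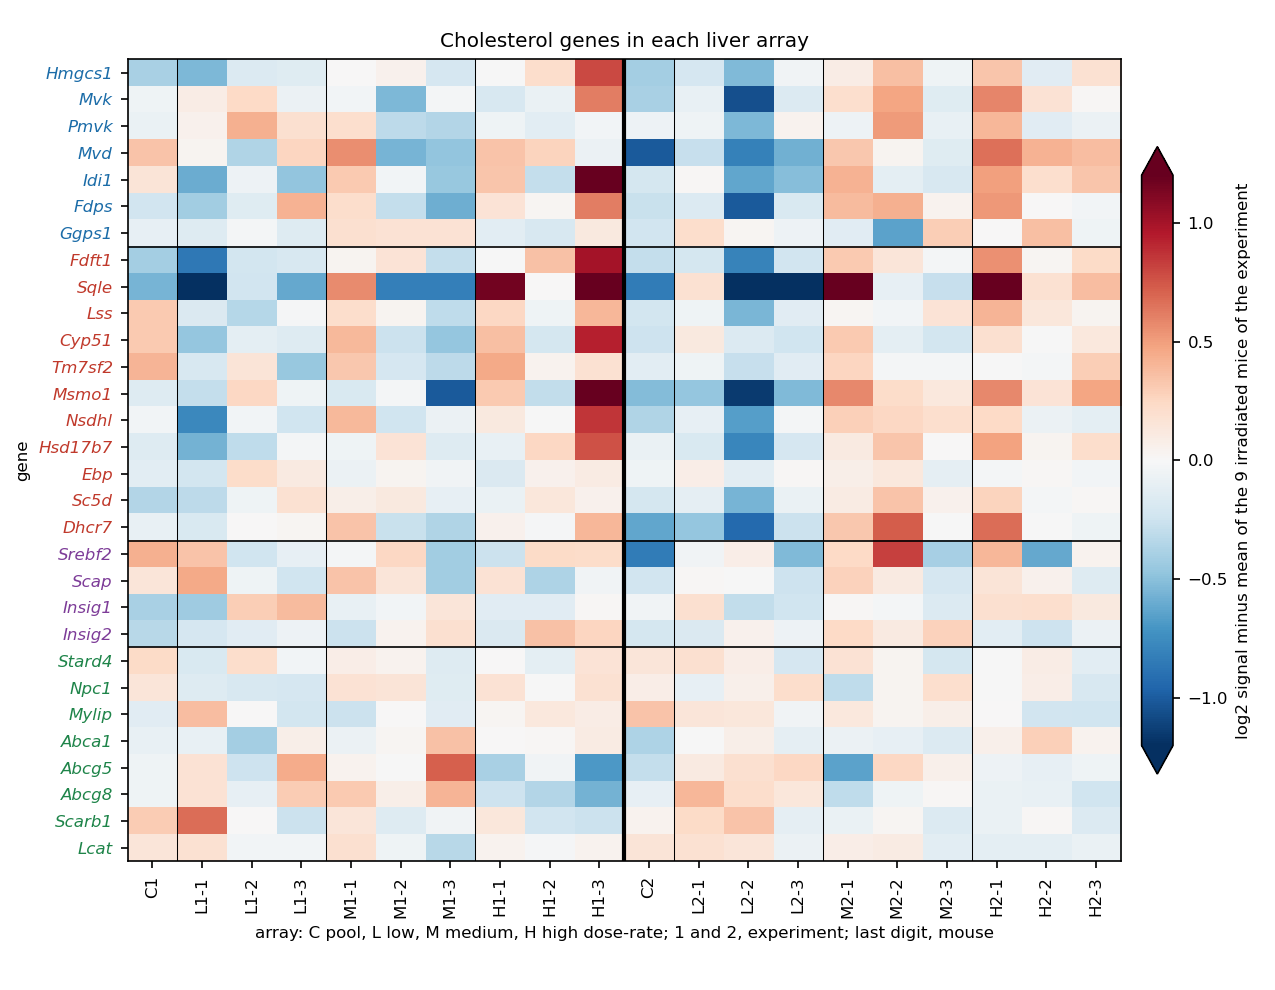
Log2 signal of the 30 genes (rows, named in colour by role) on the 20 arrays (columns, from control pool to high within each experiment), as the difference from the mean of the 9 irradiated mice of that experiment. The third high mouse of experiment 1 is the warmest column among the enzymes and the second low mouse of experiment 2 the coldest.

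Hmgcs1, the synthase at the entry of the mevalonate branch, had a signal in experiment 1 of 13819 in the control pool, 12485, 16161 and 16421 in low mice, 18165, 18851 and 15790 in medium mice, and 18140, 21028 and 31355 in high mice. In experiment 2 it was 12964 in the pool, 14897, 11882 and 16728 in low mice, 18257, 22014 and 16599 in medium mice, and 21624, 15599 and 19542 in high mice. Every high mouse exceeded the pool of its own experiment, and in experiment 2 high and low mice overlapped through the second high mouse. High against low gave a log2 difference of 0.50 ± 0.13 (SE over 6 mice of each level, limma adjusted p = 0.156, higher in 6 of 6 mice than the low mean).

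Idi1 converts isopentenyl to dimethylallyl diphosphate, the primer of every isoprenoid chain. Its signal in experiment 1 was 3516 in the pool, 2098, 3044 and 2273 in low mice, 3930, 3093 and 2302 in medium mice, and 3994, 2599 and 7583 in high mice. Experiment 2 gave 2485 in the pool, 2916, 1872 and 2017 in low mice, 3856, 2655 and 2519 in medium mice, and 4050.2, 3311 and 3634 in high mice. High and low mice were apart in experiment 2 and overlapped in experiment 1, where the pool stood above all 3 low mice, and medium mice overlapped both in each experiment. The difference high against low was 0.76 ± 0.19 (adjusted p = 0.156), and against control it was 0.42 ± 0.27 (limma adjusted p = 0.785).

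The rest of the mevalonate branch was mixed. Mvd, which decarboxylates mevalonate diphosphate, had a log2 difference of 0.62 ± 0.22 for high against low (limma adjusted p = 0.304), and Fdps, which makes farnesyl diphosphate, had 0.47 ± 0.19 (adjusted p = 0.401). The kinase Mvk stood at 0.36 ± 0.20. The kinase Pmvk (-0.02, 95% interval -0.33 to 0.29) and Ggps1 (0.05, -0.26 to 0.35), which draws farnesyl units away from sterols to geranylgeranyl diphosphate, lay near 0. Other well-measured Ggps1 probe sets gave -0.30, 0.09 and 0.30. In all, 4 of the 7 enzymes of this branch were higher at an unadjusted p under 0.05, against 5.38% of all genes. The branch's median was 0.47.

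In the sterol branch nearly all members were higher. Its median difference for high against low was 0.48, with 10 of 11 enzymes higher and 10 of 11 at an unadjusted p under 0.05, against 10.1% of all genes. The exception was Ebp, the sterol isomerase, at -0.02 (95% interval -0.17 to 0.13).

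Fdft1 joins 2 farnesyl units to squalene and so commits carbon to sterols. Its signal in experiment 1 was 3825 in the pool, 2804, 4374 and 4452 in low mice, 5195, 5708 and 4170.2 in medium mice, and 5061, 6508 and 10175 in high mice. The signals of experiment 2 were 4408 in the pool, 4637, 3083 and 4586 in low mice, 6669, 5925 and 5280.5 in medium mice, and 7880 (to the nearest unit), 5471 and 6290 in high mice. High mice were above low mice and above the pool without overlap in each experiment, and overlapped medium mice. The log2 difference was 0.78 ± 0.16 for high against low (95% interval 0.45 to 1.10, limma unadjusted p = 6.445e-05, adjusted p = 0.0792), the lowest adjusted p of any member in that comparison. A second well-measured Fdft1 probe set gave 0.66.

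Sqle introduces the first oxygen into squalene and is held to be a control point of the sterol branch. Its signal in experiment 1 was 329 in the pool, 207.6, 415.1 and 316.5 in low mice, 725.5, 273.2 and 272.7 in medium mice, and 1096.5, 488.4 and 1901.5 in high mice. In experiment 2 it was 378.4 in the pool, 776.6, 223.2 and 291.3 in low mice, 1606.2, 639.7 and 564.4 in medium mice, and 1594.5, 778.4 and 888 in high mice. No high mouse overlapped the low mice of its experiment, but in experiment 2 the gap was 778.4 against 776.6, and the first medium mouse there, at 1606.2, exceeded every high mouse. The log2 difference was 1.59 ± 0.37 for high against low (95% interval 0.83 to 2.35, limma adjusted p = 0.118). Mice of one group differed by up to severalfold.

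Hsd17b7 had a signal of 1480 (to the nearest unit) in the pool of experiment 1, 1111, 1334 and 1618 in low mice, 1595, 1842 and 1481 in medium mice, and 1554, 1963 and 2809 in high mice. Experiment 2 gave 1421 in the pool, 1315, 867 and 1299 in low mice, 1618, 1889 and 1504 in medium mice, and 2089.5, 1534.5 and 1734 in high mice. High and low mice overlapped in experiment 1 and not in experiment 2. The difference was 0.62 ± 0.14 (limma adjusted p = 0.118), but its 2 other well-measured probe sets gave 0.42 and 0.14.

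Msmo1, the sterol methyl oxidase, differed by 0.79 ± 0.25 for high against low (limma adjusted p = 0.252), and the lanosterol synthase Lss by 0.41 ± 0.12 (adjusted p = 0.198). Nsdhl, which removes the methyl groups at C4, stood at 0.48 ± 0.16 and Dhcr7, the last reductase on the route through lathosterol, at 0.48 ± 0.19. Tm7sf2, a sterol reductase, stood at 0.32 ± 0.12 and Sc5d, which desaturates lathosterol, at 0.21 ± 0.10. For these 6 genes high and low mice overlapped in at least 1 experiment.

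The demethylase Cyp51 is described in full because it returns in the comparison between mice. In experiment 1 its signal was 1950.2 in the pool, 1129.5, 1446 and 1402 in low mice, 2046, 1307 and 1129.5 in medium mice, and 2014, 1349 and 2994 in high mice. The signals of experiment 2 were 1381 in the pool, 1779, 1462 and 1391 in low mice, 2046, 1516.5 and 1411 in medium mice, and 1875, 1632.5 and 1796 in high mice. High and low mice overlapped in both experiments. The difference for high against low was 0.40 ± 0.17 (limma adjusted p = 0.42), and its 2 other well-measured probe sets gave 0.55 and 0.16.

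**Figure D2:**
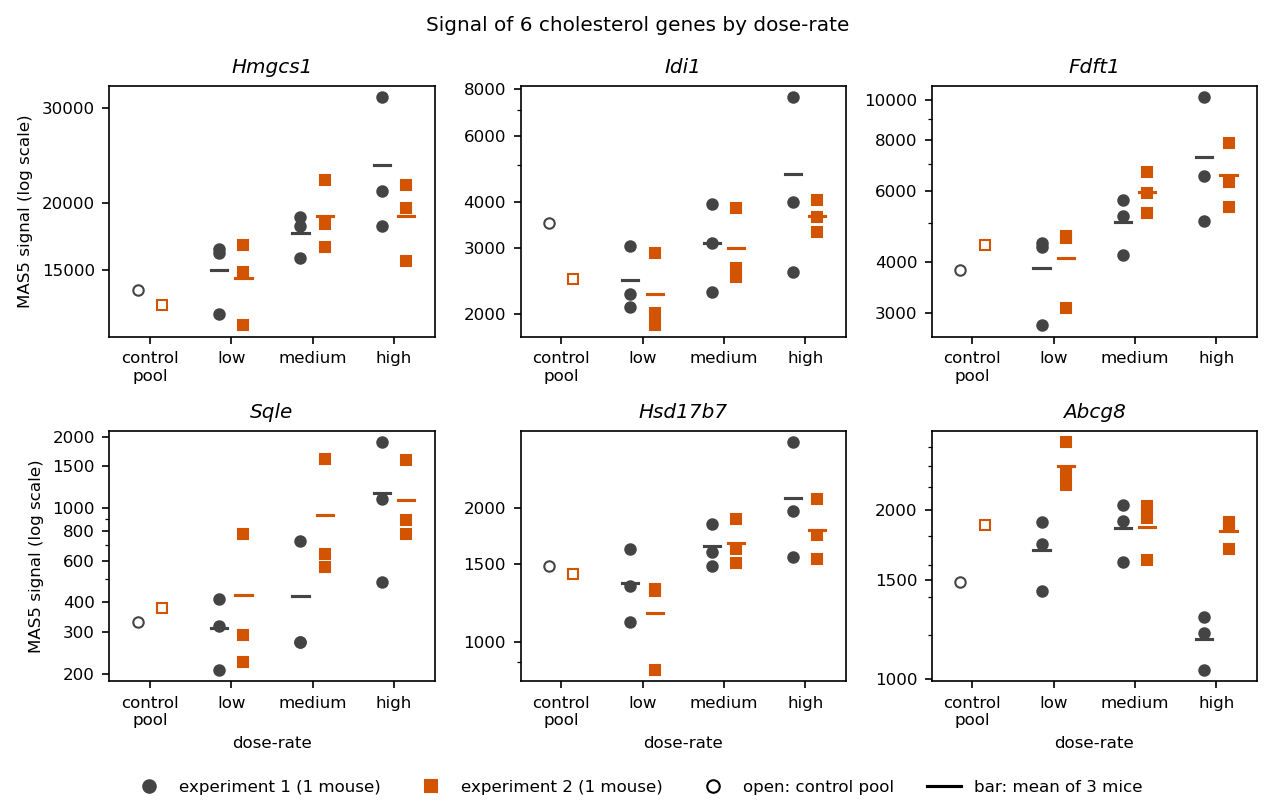
MAS5 signal (log axis) of Hmgcs1, Idi1, Fdft1, Sqle, Hsd17b7 and Abcg8 on each array by dose level (control pool, low, medium, high), with circles for experiment 1, squares for experiment 2, open symbols for pools and a bar at the mean of 3 mice. In both experiments the bars of high mice lie above those of low mice for the 5 enzymes and below them for Abcg8.

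By the probe sets used, the genes that sense sterols and carry SREBP2 lay near 0 for high against low. Whether they differed from the enzymes was not tested. Over Srebf2, Scap, Insig1 and Insig2 the median difference for high against low was 0.07, and 0 of 4 had an unadjusted p under 0.05, against 10.1% of all genes. Srebf2, which encodes SREBP2, differed by 0.09 ± 0.23 (95% interval -0.39 to 0.56, limma adjusted p = 0.92), and Scap by -0.02 ± 0.14 (-0.30 to 0.27). Against control the median of the 4 was 0.15 in low, 0.24 in medium and 0.23 in high mice, beside -0.02, 0.25 and 0.40 over the 18 enzymes.

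Insig1 is itself a strong SREBP target in liver. Its signal in experiment 1 was 4082 in the pool, 3973, 6538 and 6946 in low mice, 5010.2, 5221 and 5903 in medium mice, and 4868, 4861 and 5385.5 in high mice. In experiment 2 it was 3056 in the pool, 3591, 2553 and 2661 in low mice, 3167.5, 3094 and 2803 in medium mice, and 3587, 3604.5 and 3396 in high mice. Low and high mice overlapped in both experiments and the difference was 0.06 (95% interval -0.20 to 0.31, limma adjusted p = 0.9). That difference averages over experiments in which most low mice lay on opposite sides of the high mice. In experiment 1 the low mice at 6538 and 6946 lay above every high mouse, and the low mouse at 3973 lay below them. In experiment 2 the low mice at 2553 and 2661 lay below every high mouse, and the low mouse at 3591 lay among them. Whether Insig1 differed from the enzymes was not tested, so its interval is not read against their median.

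Insig2, the isoform with a liver-specific transcript, had 14723 in the pool of experiment 1, 16026, 16853 and 17746 in low mice, 15453, 19029 and 21110 in medium mice, and 16372, 23521 and 22037 in high mice. Experiment 2 gave 14309 in the pool, 14729, 17198.5 and 15911 in low mice, 19658, 17933 and 20061 in medium mice, and 15181, 13991 and 15832 in high mice. High mice lay below all medium mice in experiment 2, while in experiment 1 the highest signals were those of 2 of the 3 high mice. Medium against control was 0.37 ± 0.14 (limma unadjusted p = 0.0165, adjusted p = 0.687). In 6 of 6 medium mice Insig2 lay above the pool of the same experiment, which held for 6 of 30 members. Each pool is 1 array and the share of all genes is not given here, so that count is not read as a result about the members. High against low was 0.09 by the probe set used, and its other well-measured probe sets gave 0.24 and 0.21.

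Srebf2 had 546.6 in the pool of experiment 1, 514.1, 341.9 and 377.2 in low mice, 399, 483.9 and 302.4 in medium mice, and 337.3, 475.4 and 472.4 in high mice. The signals of experiment 2 were 193.8 in the pool, 342, 373.1 and 242.7 in low mice, 419.6, 630 and 266.7 in medium mice, and 468.7, 227.8 and 364.8 in high mice. The pool was the highest array of experiment 1 and the lowest of experiment 2, and among irradiated mice the levels overlapped.

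Among the genes that move sterols out of the cell, the pump subunits Abcg5 and Abcg8, which together send cholesterol into bile, ran opposite to the enzymes. Abcg8 had 1489 in the pool of experiment 1, 1741, 1438 and 1910.3 in low mice, 1913, 1619 and 2043 in medium mice, and 1293, 1209 and 1038.5 in high mice. In experiment 2 it was 1883 in the pool, 2650.2, 2331 and 2217 in low mice, 1628.5, 1939 and 2039 in medium mice, and 1910, 1889 and 1707.5 in high mice. High mice lay below low mice without overlap in each experiment, and below medium mice without overlap in experiment 1 only. High against low was -0.45 ± 0.11 (95% interval -0.68 to -0.22, limma adjusted p = 0.156), and high against medium was -0.34 ± 0.11 (adjusted p = 0.999).

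Abcg5 had 3139 in the pool of experiment 1, 3670, 2729 and 4427 in low mice, 3341, 3234 and 5347 in medium mice, and 2480 (to the nearest unit), 3165 and 2010 in high mice. Experiment 2 gave 2833 in the pool, 3727, 3964 and 4109.5 in low mice, 2217, 4103 and 3609 in medium mice, and 3314, 3237 and 3336 in high mice. Separation from low mice held in experiment 2 only. High against low was -0.37 ± 0.17 (limma adjusted p = 0.444). Against the pools both subunits were nearer 0, at -0.05 ± 0.23 for Abcg5 and -0.19 ± 0.16 for Abcg8.

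Abca1, which loads cholesterol onto apolipoprotein A-I and shares LXR control with the pump subunits, was not lower in high mice than in low mice on average. Its signal in experiment 1 was 8512 in the pool, 8497, 6853 and 9513 in low mice, 8649, 9209 and 11535 in medium mice, and 9120.3, 9169 and 9735 in high mice. The signals of experiment 2 were 6547 in the pool, 8448, 8900.3 and 7858 in low mice, 8057, 7924 and 7585 in medium mice, and 8830, 10336 and 8743 in high mice. All 6 high mice exceeded the pool of their experiment, and high and low mice overlapped. Exceeding the pool held for 10 of 30 members, a count given without the share of all genes and not read as a result about the members. High against control was 0.32 ± 0.13 (limma unadjusted p = 0.0228, adjusted p = 0.607) and high against low 0.16 ± 0.09. However, its 2 other well-measured probe sets gave only 0.06 and 0.04 for high against control, and 0.13 and 0.08 for high against low.

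Mylip, a ubiquitin ligase that LXR induces, had 737.7 in the pool of experiment 1, 1053.2, 815.8 and 694.7 in low mice, 679.1, 815.5 and 737.4 in medium mice, and 826.6, 889.2 and 865.2 in high mice. In experiment 2 it was 1321 in the pool, 1147.5, 1143.7 and 1007.2 in low mice, 1139.5, 1063.7 and 1090.9 in medium mice, and 1042.3, 886.7 and 882.4 in high mice. The high mice were thus all above the pool in experiment 1 and all below it in experiment 2. Of the remaining transport genes, the HDL receptor Scarb1 stood at -0.24 ± 0.12 for high against low, though its 2 other well-measured probe sets gave 0.02 and 0.06. The lysosomal exporter Npc1 stood at 0.10 ± 0.10. The plasma esterifying enzyme Lcat stood at -0.10 ± 0.08 and the sterol carrier Stard4, an SREBP2 target, at -0.01 ± 0.09 (95% interval -0.19 to 0.17).

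Over both experiments the enzymes' median followed the order of dose, but each step came mainly from 1 experiment. The median over the 18 was 0.27 for medium against low and 0.19 for high against medium, with 16 of 18 higher in each (15 of 18 for high against medium with quantile-normalized or median-centred arrays). Medium against low was 0.46 in experiment 2 (17 of 18 higher), against 0.12 in experiment 1 (11 of 18 higher, with the mevalonate branch at -0.14). High against medium was 0.09 in experiment 2 (11 of 18 higher), against 0.32 in experiment 1 (17 of 18 higher). Single mice weighed on both: medium against low was 0.16 without the second low mouse of experiment 2, and high against medium was 0.11 without the third high mouse of experiment 1. For medium against low limma called 0 of 30 members (0% of all genes), and 6 members, all enzymes, had an unadjusted p under 0.05, against 7.95% of all genes. The lowest were Fdft1 (0.47 ± 0.16) and Hsd17b7 (0.41 ± 0.14), both at an adjusted p of 0.477. For high against medium it again called 0 of 30 (0% of all genes), and 2 members, Sqle (0.85 ± 0.37) and Abcg8, had an unadjusted p under 0.05, against 3.78% of all genes. A trend over the levels in the 18 irradiated mice was called in 0 of 30 members (0% of all genes), and 15 members (13 higher, all enzymes, and Abcg5 and Abcg8 lower) had an unadjusted p under 0.05, against 9.92% of all genes. Its slope per level was 0.39 ± 0.08 for Fdft1 (adjusted p = 0.0775), 0.79 ± 0.18 for Sqle (adjusted p = 0.115) and 0.31 ± 0.07 for Hsd17b7 (adjusted p = 0.115).

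Comparisons with unirradiated mice rest on 2 pools, whose spread cannot be measured. For high against control limma called 0 of 30 members, against 0.0803% of all genes, and 7 members (23.3%), all higher, had an unadjusted p under 0.05, against 7.24% of all genes. All 18 enzymes were higher, with a median of 0.40, though only 15 of 18 were once arrays were centred on their medians, which lowered the median of all genes from 0.01 to -0.09 and left 3 members higher and 1 lower at that p. Without the pool of experiment 2 the enzyme median was 0.24 and 3 members had that p. In experiment 1 alone the median was 0.26, with 15 of 18 enzymes higher. The leading genes were Hmgcs1 (0.63 ± 0.18, limma adjusted p = 0.351), Fdft1 (0.71 ± 0.22, adjusted p = 0.393) and Sqle (1.51 ± 0.52, adjusted p = 0.459). For each, 6 of 6 high mice lay above the pool of their experiment. That held for 10 of 30 members, while for 3 members all high mice lay below the pool of their experiment. Each pool is 1 array, and the share of all genes that do so is not given here.

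For medium against control limma called 0 of 30 members, against 0.0357% of all genes. An unadjusted p under 0.05 was reached by 3 members, against 6.05% of all genes: Sc5d (0.38 ± 0.14, limma adjusted p = 0.675), Insig2 and Hmgcs1 (0.44 ± 0.18, adjusted p = 0.732). With median-centred arrays 0 members reached it. The enzyme median was 0.25, with 15 of 18 higher. By experiment it was 0.40 in experiment 2 (18 of 18 higher) and 0.0005 in experiment 1 (9 of 18 higher). Low mice lay close to the pools, with 0 of 30 members called, against 0.00892% of all genes, and 0 with an unadjusted p under 0.05, against 3.87% of all genes. The median over the 18 enzymes was -0.02, with 8 higher (4 with median-centred arrays). The member with the lowest p was Tm7sf2, at -0.31 ± 0.17 (limma adjusted p = 0.998).

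**Figure D3:**
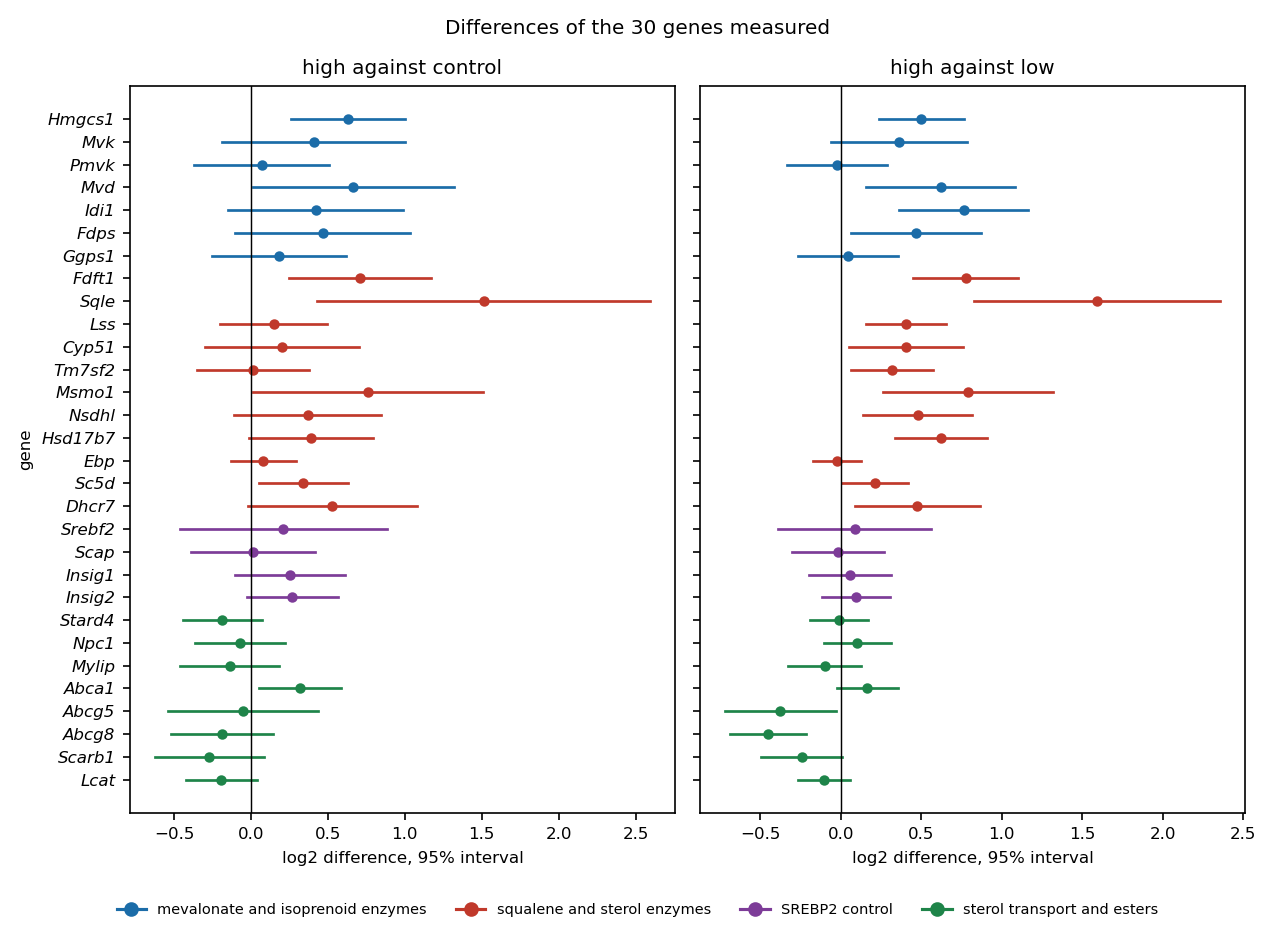
Log2 difference with its 95% interval for each of the 30 genes, high against control (left) and high against low (right), with genes ordered and coloured by role. Intervals are wider against control, where 2 pools stand in for unirradiated mice, and in the right panel 14 enzymes lie clear of 0 on the upper side and Abcg5 and Abcg8 on the lower.

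The experiments differed for these genes about as often as for genes at large. Experiment 2 against experiment 1 was called by limma in 12 of 30 members (40%, 10 higher and 2 lower), against 42.7% of all genes. Scap had the widest difference (1.04 ± 0.11), and Insig1 (-0.73) and Msmo1 (-0.97) were the ones that fell. Gapdh, whose 3'/5' probe ratio gauges RNA integrity, had ratios of 0.871 to 0.993 on the arrays of experiment 2, against 0.690 to 0.769 on those of experiment 1. The part of RNA quality in these differences was not tested, and within each experiment the ratios of high and low mice overlapped.

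Taken by experiment, the enzyme median for high against low came to 0.53 in experiment 2, against 0.38 in experiment 1. Tests of the difference between experiments called 0 of 30 members for high against low (0% of all genes), high against medium (0%), medium against low (0%), medium against control (0%) and low against control (0%), and 0 of 30 for high against control, against 0.00892% of all genes. For medium against low, 7 of 30 members had an unadjusted p under 0.05, against 8.88% of all genes. The lowest were Msmo1, with a difference between experiments of 1.40 ± 0.44 (limma adjusted p = 0.306), and Dhcr7, with 0.95 ± 0.32 (adjusted p = 0.372).

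Those values trace to a few groups. Msmo1 in experiment 2 was 5404, 4198 and 3944 in medium mice, against 2617, 1621 and 2491 in low mice, and in experiment 1 it was 6088, 6773 and 3434.5 in medium mice, against 5650, 8201.5 and 6655 in low mice. Dhcr7 in experiment 2 was 2734, 3619 and 2168 in medium mice, against 1580 (to the nearest unit), 1136 and 1820.2 in low mice, and in experiment 1 it was 1637, 1070.1 and 1006.5 in medium mice, against 1139, 1294 and 1310 (to the nearest unit) in low mice. The groups were apart in experiment 2 and overlapped in experiment 1 for both genes. Mvd had the lowest p for high against control, with a difference between experiments of 1.65 ± 0.50 (limma unadjusted p = 0.00373, adjusted p = 0.962). Its signal was 908.1, 766.1 and 738.2 in high mice of experiment 2, against 280.4 in the pool, and 492.1, 465.5 and 367.8 in high mice of experiment 1, against 491.5 in the pool.

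Single mice weighed on the medians. The third high mouse of experiment 1 had the highest signal of the 9 irradiated mice in 12 of 18 enzymes, and its median enzyme stood 1.53-fold above the mean of those mice. The second low mouse of experiment 2 had the lowest signal in 16 of 18, with its median enzyme at 0.641-fold. The other mice ranged from 0.807-fold to 1.36-fold. Without the third high mouse of experiment 1 the enzyme median for high against low was 0.37 and 12 members had an unadjusted p under 0.05. With all mice 16 members had that p, against 10.1% of all genes.

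Mice of one group share dose and experiment but differed in Sqle. Its deviations from group means can thus be set against those of every other gene without the group's dose entering. The tests take the mice as independent. In low, medium and high order, first mice deviated by -0.522, 0.925 and 0.122 in experiment 1 and 1.053, 0.939 and 0.622 in experiment 2. Second mice deviated by 0.453, -0.461 and -1.034, and by -0.714, -0.38 and -0.405. Whether a factor shared by same-numbered mice entered was not tested. Across the 18 irradiated mice limma fitted a slope on Sqle for 11205 other genes. Only 2 genes, 0.0178% of those tested, passed at an adjusted p under 0.05, and both are members: Idi1, with a slope of 0.49 ± 0.067 log2 units per log2 unit of Sqle (adjusted p = 0.0128), and Cyp51, with 0.39 ± 0.059 (adjusted p = 0.0230). An unadjusted p under 0.05 was reached by 12 of 29 members, against 3.57% of all genes. All 17 other enzymes had a positive slope, with a median of 0.212, while the median over all genes was 0. Msmo1, Nsdhl and Fdps were also among the first 20 genes by p.

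Idi1 and Sqle deviated together with Pearson r = 0.899 and Spearman rho = 0.920 (18 mice, exact permutation within groups, two-sided, p = 2.143e-05, the smallest that 46656 orders can give, and p = 6.43e-05). Cyp51 and Sqle gave r = 0.901 and rho = 0.893 (exact permutation within groups, p = 0.000193 and p = 0.000343). Both genes are given because they passed in the slope fit to these same mice. Their permutation p-values are not adjusted for that choice and are not separate support. By experiment, r was 0.986 in experiment 2 and 0.909 in experiment 1 for Idi1, and 0.914 and 0.977 for Cyp51. Without the 2 mice farthest from the median in Sqle, r was 0.889 for Idi1 and 0.914 for Cyp51. Both genes missed the threshold without the second high mouse of experiment 1 (lowest adjusted p = 0.197), without the first medium mouse of experiment 2 (0.0549), in either experiment alone (0.320 and 0.610), and with median-centred arrays (0.0910). Idi1 passed in 16 of 18 fits with 1 mouse left out and Cyp51 in 11 of 18, with slopes of 0.40 to 0.52 and 0.34 to 0.45.

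For the genes of control and transport the median r with Sqle was -0.071 (12 genes), against 0.593 over the 17 other enzymes. None of the 12 passed over all genes. Abcg5 had a slope of -0.263 and r = -0.641 (limma unadjusted p = 0.00557), while the sterol carrier Stard4 ran with Sqle, with a slope of 0.144 and r = 0.678 (limma unadjusted p = 0.0114). Insig1 also ran with Sqle in experiment 2 (r = 0.798), and less so in experiment 1 (r = 0.30). The 15 genes of fatty acid synthesis under SREBP1, the sister factor that answers to insulin, had a median slope of -0.094. Of these, 3 of 15 were positive and 0 called, and 2 had an unadjusted p under 0.05, against 3.57% of all genes.

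**Figure D4:**
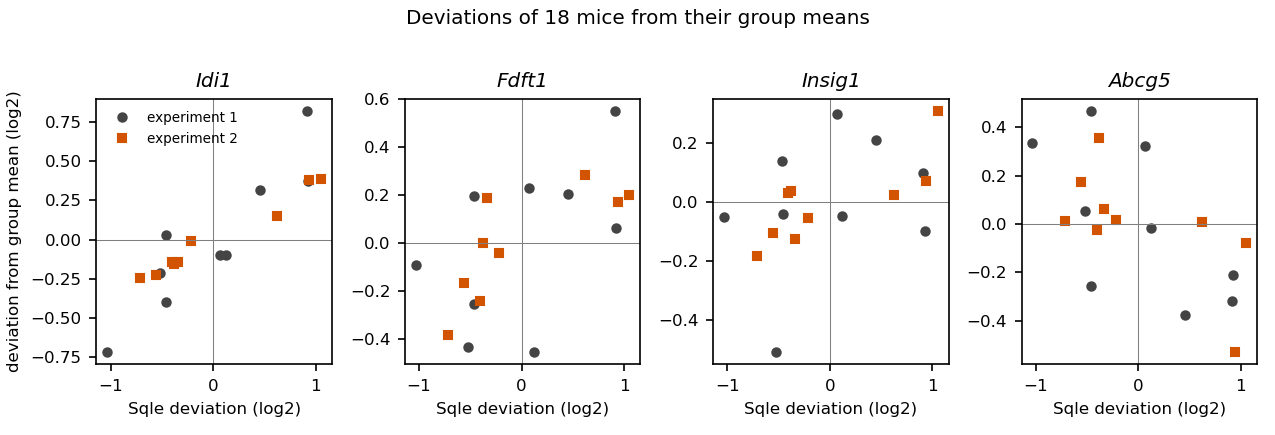
Deviation of each of the 18 irradiated mice from the mean of its group for Sqle (x axis, log2) against Idi1, Fdft1, Insig1 and Abcg5 (y axes, log2), with circles for experiment 1 and squares for experiment 2. Idi1 follows Sqle closely (r = 0.899), Fdft1 less so (r = 0.615), and Abcg5 runs the other way (r = -0.641).

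Neighbouring pathways were read with lists made for the purpose. For high against low 10.1% of all genes had an unadjusted p under 0.05 (5.38% higher, 4.68% lower), and 0% were called. In 12 genes of the other isoprenoid routes (prenyl transfer, dolichol and ubiquinone) the median for high against low was 0.00, and 1 had an unadjusted p under 0.05. In 9 genes that process SREBP or degrade sterol enzymes it was -0.04, with 0 at that p, and 0 were called. In 15 other genes of sterol handling it was 0.03, with 2 higher and 2 lower at that p, led by the phospholipid transfer protein Pltp (0.77 ± 0.22, limma adjusted p = 0.190). In 5 oxysterol enzymes it was -0.15, with 0 at that p and 0 called. The 15 genes of SREBP1 and fatty acid synthesis were all higher for high against low, with a median of 0.23, 4 at that p and 0 called. Srebf1 itself stood at 0.53 ± 0.20 (limma adjusted p = 0.321).

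Genes of the circadian clock and of feeding also differed between high mice and the pools, and cholesterol synthesis is known to follow both. Of 17 clock genes 2 were called lower in high mice against control, against 0.0803% of all genes called. They were Usp2 (-2.26 ± 0.35, limma adjusted p = 0.00836) and Dbp (-1.84 ± 0.33, adjusted p = 0.0259), and the list's median was -0.36. Both also lay below the pool of the same experiment in every low and medium mouse. In experiment 1 Dbp was 2745.4 in the pool, against 1052.5, 1178.6 and 1275.2 in low mice. In experiment 2 it was 4159.8 in the pool, against 933.9, 748.1 and 2171.8 in low mice. The clock activator Arntl stood at 0.97 ± 0.26 (adjusted p = 0.305). In high against low the list's median was -0.10, with 4 higher and 2 lower at an unadjusted p under 0.05 and 0 called. Of all genes, 5.38% were higher and 4.68% lower at that p, and 0% were called. Of 9 feeding genes, Angptl4, an inhibitor of lipoprotein lipase that fasting induces, fell in high mice against control (-1.61 ± 0.30, adjusted p = 0.0292). Igfbp1, which fasting also induces, stood at 1.10 ± 0.35 (adjusted p = 0.393). In high against low they stood at -0.98 ± 0.21 and 0.99 ± 0.25. The part of the hour of killing or of feeding in the enzymes' differences was not tested. Between mice of one group, 7 of 17 clock genes and 2 of 9 feeding genes had a positive slope on Sqle, and 0 were called. An unadjusted p under 0.05 was reached by 0 and 1 of them, against 3.57% of all genes.

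The RNA was that of liver throughout. The summed signal of 9 hepatocyte markers was 341400 to 391100 in pools, 323900 to 400900 in low, 362900 to 445100 in medium and 354000 to 409300 in high mice. That of 9 Kupffer cell markers was 21690 to 25380, 22670 to 30260, 18860 to 28350 and 19190 to 28900 in the same order. Sums for endothelium, stellate cells, T cells and pancreatic acinar cells overlapped between all levels. The cholangiocyte sum, with 2 of 5 measured markers above the median signal, was 303.2 to 363.1 in pools, 265.4 to 510.8 in low, 286.9 to 579.1 in medium and 384.1 to 528.1 in high mice. The B cell sum, with 3 of 6 measured markers above the median signal, was 346.9 to 385.3 in pools, 463.8 to 715.1 in low, 399.2 to 731.9 in medium and 447.7 to 1205 in high mice. The part of either cell type in a difference from control was not tested. In whole liver, fewer cells of a type and less RNA per cell cannot be told apart.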

How the data were processed

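Liver RNA was measured on Affymetrix 3' expression arrays, 1 mouse or 1 pool per array. Per the submitters' processing notes the authors computed MAS5 intensity (linear), with no version stated in the sources used here. A mean trimmed by 2% per end came to 500 for each array, array medians were 81.3 to 104.8, and pairs of arrays correlated at 0.939 to 0.978. Of 45101 probe sets, 34945 had 1 gene symbol in the platform annotation and 932 had several, which were not used.

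Signals were transformed here as log2(signal + 7.12), the pseudocount being the 10th percentile of all signals, so differences of dim genes are understated. Folds are 2 to the power of that difference. Per gene the probe set with the highest mean was kept if that mean was at least 84.9, the median of all probe sets, which left 11206 of 18193 genes. limma 3.58.1 in R 4.3.3 (lmFit and eBayes with a variance trend) was fitted to 20 arrays by level and experiment (residual degrees of freedom, 15), with two-sided tests and Benjamini-Hochberg adjustment over all genes at 0.05. Differences between experiments were tested as interactions, the dose order as a slope over 18 irradiated arrays, and the slope on Sqle with group means as terms, a fit chosen after seeing the data. The procedure was tested on simulated data. The spread that p-values measure is that between these samples, and precision is limited by how few arrays there are, most of all against the 2 pools. The members, the lists of related genes and markers, and the tests were chosen with earlier results of these data known. Signals were given per array for 9 members fixed by rule and for members with low p in the comparisons, and those of Abcg5, Msmo1, Dhcr7 and Mvd were added because sentences rest on them.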

Additional observations from a re-analysis of the deposited data

How the results depend on the processing

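Alternatives covered the pseudocount, the signal filter, the probe set rule, array scaling, the variance trend, the experiment term, weights by mice, each experiment alone, only the compared levels, a replicate block and leaving out each array. The number of members called against control was 0 except where arrays were weighted by the mice they hold: then 3 were called for high against control (Hmgcs1 0.63, adjusted p = 0.0142, Fdft1 0.69, 0.0291, and Sqle 1.55, 0.034), and Mvd was 1 call in the difference between experiments for high against control (1.65, adjusted p = 0.0221) and 1 for medium against control (1.58, 0.0362). Such weights treat a pool of 6 mice as 6 times as precise, which these data cannot check. Leaving out 1 array gave 0 to 2 members called for high against low: Fdft1 (0.83) and Hsd17b7 (0.69) without the third low mouse of experiment 1, both at an adjusted p of 0.0456, and Fdft1 (0.82, 0.0471) without the third low mouse of experiment 2. With 1 array left out the enzyme median kept its sign for high against low (0.37 to 0.51), medium against low (0.16 to 0.36) and high against medium (0.11 to 0.26). It also did so for high against control (0.24 without the pool of experiment 2, 0.51 without that of experiment 1) and medium against control (0.12 to 0.31). For low against control it ran from -0.20 to 0.13. In experiment 1 taken alone, medium against control was 0.0005, with 9 of 18 enzymes higher. One named gene reversed: Lss, low against control, was 0.00826 without the pool of experiment 1, against -0.26 with it and -0.52 without the pool of experiment 2. The cause was not tested. For high against low, members at an unadjusted p under 0.05 ranged from 9 (experiment 1 alone) to 18 (without the second low mouse of experiment 1). For high against control they ranged from 3 (without the pool of experiment 2) to 15 (weights by mice). The main fit gave 16 and 7, against 10.1% and 7.24% of all genes. Shares of all genes under these alternatives, called or at that p, are not given here. The counts are therefore not read as a result about the members. Members called for a slope on Sqle went from 2 to 0 in experiment 1 alone, in experiment 2 alone, with median-centred arrays, and without the third high mouse of experiment 1 and the second low mouse of experiment 2 together (lowest adjusted p = 0.0712), and from 0 to 3 when 1 mouse was left out.

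Groups share replicate numbers, and no label says that a number links mice. Deviations of same-numbered mice correlated at -0.154 to 0.307 (18 pairs, median 0.0768, 7 over 0.1), and those of differently numbered mice of the same experiment at -0.247 to 0.215 (36 pairs, median -0.0171, 5 over 0.1). Same-numbered pairs ran higher on median, but these values cannot settle whether the numbers pair mice. The main fits took the mice as unpaired, and a fit with a replicate block was set beside them. With the number as a replicate block 0 members were called for high against low (0.00892% of all genes, lowest adjusted p = 0.0598), 0 for medium against low (0% of all genes, 0.329), 0 for high against medium (0%, 0.999) and 0 for the dose order (0%, 0.0573), and the enzyme median for high against low was 0.47. At an unadjusted p under 0.05 the block gave 16 members for high against low (11.6% of all genes), 10 for medium against low (9.02%), 3 for high against medium (4.58%) and 17 for the dose order (11.6%).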
